A study of Mus musculus with 6 samples.

Results

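Mitosis genes were examined in LSK cells, the lineage-negative, Sca1-positive and cKit-positive fraction of mouse bone marrow, in which blood stem cells and multipotent progenitors are found. The members were 36 named genes of the G2 and M phases, and a gene entered when a probe set of the array was annotated to that gene alone. This left 35 members among the 22180 genes measured. Ncapg, a condensin subunit gene, shares its probe set with another gene and was left out, and Sgol1 was matched under its current symbol Sgo1. Each member had a single probe set. The cells came from mice carrying transplanted marrow labelled Tifab+/+ (WT) or Tifab-/- (KO), with 3 mice and 3 arrays in each group. Tifab encodes a relative of TIFA, an adaptor of TRAF6 signalling. Both groups shared one procedure, in which, per the labels' protocols, lethally irradiated Boy/J recipients had 7.0 Gy and, 3 hours later, 4.75 Gy. The labels give 3 months without settling whether it is an age or an interval since transplantation. They state no donor marker in the sort, so LSK cells of donor and of recipient origin cannot be told apart. Values are log2 probe set signals from Affymetrix MoGene 2.0 ST arrays, and differences are knockout minus wild type by label.

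Genes of this kind are transcribed late in the cell cycle and are nearly silent in resting cells. In quiescence and early G1 the DREAM complex holds them down at promoter elements called the cell cycle genes homology region (CHR), and from S phase onward B-MYB with MuvB and then FOXM1 activate them, often together with NF-Y at CCAAT boxes. Long-term stem cells of the marrow are mostly quiescent and multipotent progenitors divide more often, so mitotic transcripts in bulk LSK RNA come from the dividing part of the population. A smaller dividing share and less mitotic RNA per dividing cell cannot be told apart in these bulk samples.

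Promoter sequences show what these genes share beyond their function. A promoter of 300 bases, 250 before to 50 after the start in RefSeq on GRCm38.p6, was matched for 29 of the 35 members. The CHR letters TTTGAA, searched on both strands, occurred in 21 of these 29 genes (72.4%), against 17.7% of 16918 measured genes with a promoter. The CCAAT letters, on both strands, occurred in 23 of 29 (79.3%), against 41.6%, and both motifs together in 19 of 29 (65.5%), against 7.10%. TTCCCGCC, a form of the E2F site, occurred in 0 of 29 members and in 3.29% of measured genes. A match is a run of letters and not a shown binding site. A few promoters are printed 5′ to 3′ on the gene's strand, with CHR and CCAAT letters in capitals, because they belong to members whose groups did not overlap: Cdca8 and Top2a lay above wild type in every knockout array, and Cdca3 and Mad2l1 below it. Those of Cdca8 (chr4:124936868-124937167, minus strand), Top2a (chr11:99024140-99024439, minus strand) and Cdca3 (chr6:124829926-124830225, plus strand) hold both motifs, and in Cdca8 a CHR and an inverted CCAAT overlap. That of Mad2l1 (chr6:66534971-66535270, plus strand) holds neither. Kif11, whose groups also did not overlap, has both motifs in its window and is not printed. Ccna2 and Foxm1, likewise without overlap, had no matched promoter, and neither had Aurkb, Tpx2, Cdc25c and Kif20a.
Cdca8: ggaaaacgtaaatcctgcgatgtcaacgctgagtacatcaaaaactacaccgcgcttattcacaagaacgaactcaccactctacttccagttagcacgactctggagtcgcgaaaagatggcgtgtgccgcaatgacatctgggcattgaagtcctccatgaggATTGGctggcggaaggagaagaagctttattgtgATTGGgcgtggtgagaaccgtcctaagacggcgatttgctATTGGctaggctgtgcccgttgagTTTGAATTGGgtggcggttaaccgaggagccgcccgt
Top2a: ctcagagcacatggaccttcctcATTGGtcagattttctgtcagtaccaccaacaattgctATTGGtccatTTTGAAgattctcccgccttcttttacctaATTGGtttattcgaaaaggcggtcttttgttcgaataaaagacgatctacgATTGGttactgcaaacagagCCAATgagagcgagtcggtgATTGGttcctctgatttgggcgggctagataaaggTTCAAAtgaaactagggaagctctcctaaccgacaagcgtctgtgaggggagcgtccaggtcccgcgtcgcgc
Cdca3: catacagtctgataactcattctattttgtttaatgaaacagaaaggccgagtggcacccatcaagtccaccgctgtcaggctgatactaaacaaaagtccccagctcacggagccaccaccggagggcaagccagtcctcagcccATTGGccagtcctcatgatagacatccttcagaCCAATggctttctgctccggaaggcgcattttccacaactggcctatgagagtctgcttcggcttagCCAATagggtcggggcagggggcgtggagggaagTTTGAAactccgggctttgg
Mad2l1: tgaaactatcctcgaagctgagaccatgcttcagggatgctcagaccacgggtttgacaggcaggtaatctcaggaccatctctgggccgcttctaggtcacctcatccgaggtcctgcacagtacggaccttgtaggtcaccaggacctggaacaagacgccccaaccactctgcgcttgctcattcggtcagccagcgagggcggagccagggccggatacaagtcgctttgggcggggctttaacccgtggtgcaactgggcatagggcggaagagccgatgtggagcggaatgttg

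Members with and without the CHR letters lay on both sides of 0. Of the 21 members with a CHR in the window, 15 had a log2 fold change above 0 and 6 below, with a median of 0.06. Of the 8 matched members without one, 4 lay above and 4 below, with a median of -0.15. The difference between these medians was not tested.

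The arrays were on a common scale, with medians over all probe sets between 4.05 and 4.10. All 35 members lay above the median level of all genes, 4.42, with means of 5.79 to 8.90 over the 6 arrays. Tifab itself was at 4.99, 5.37 and 5.53 (wild type) and 5.21, 5.12 and 5.26 (knockout), so its probe set gives no check on the labels. Among surface genes of LSK and stem cells, Kit lay at 9.41 to 9.69 over the 6 arrays and Cd34 at 10.32 to 10.66. Flt3 lay at 8.12 to 8.58, Cd48 at 7.84 to 8.39, Procr at 6.11 to 6.74 and Slamf1 at 5.44 to 5.56. Over the 10 measured LSK and stem cell markers, 7 log2 fold changes were above 0 and 3 below, with a median of 0.03. In limma 2 of them had an unadjusted p under 0.05 (20.0%, against 10.3% of all genes). Meis1 was higher in the knockout arrays without overlap, at 0.39 ± 0.13 (SE, adjusted p = 0.384). Hlf was lower without overlap, at -0.33 ± 0.13 (SE, adjusted p = 0.456). Ly6a, which encodes Sca1, was not analysed here.

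No mitosis gene passed the adjusted threshold of 0.05, and neither did any of the 22180 genes (limma, Benjamini-Hochberg over all genes, 0% called). The lowest adjusted p among the members was 0.405. At an unadjusted p under 0.05 there were 2 members, both higher in the knockout arrays (Ccna2 and Cdca8), which is 5.71% of the members against 10.3% of all genes. In the higher direction alone, all genes gave 4.74%, and in the lower direction, where there were 0 members, 5.51%. The groups did not overlap for 7 members, 4 higher (Ccna2, Cdca8, Kif11 and Top2a) and 3 lower (Foxm1, Cdca3 and Mad2l1), or 20.0% against 16.1% of all genes. In all genes the higher direction gave 7.75% and the lower 8.37%. These shares lie near the background.

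The differences were small on both sides. Of the 35 log2 fold changes 23 were above 0 and 12 below (65.7% above, against 50% of all genes), with a median of 0.06 and a range of -0.39 (Melk) to 0.47 (Cdca8). The median of all genes was 0.00, and among the 6256 genes within the members' range of signal it was 0.02, with 53.5% above 0. The 95% intervals of the log2 fold changes, not adjusted for the number of genes, ran from -0.89 at the lowest to 0.86 at the highest. All 35 intervals lay within a 2-fold change in either direction, and 24 lay within 1.5-fold.

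**Figure D1:**
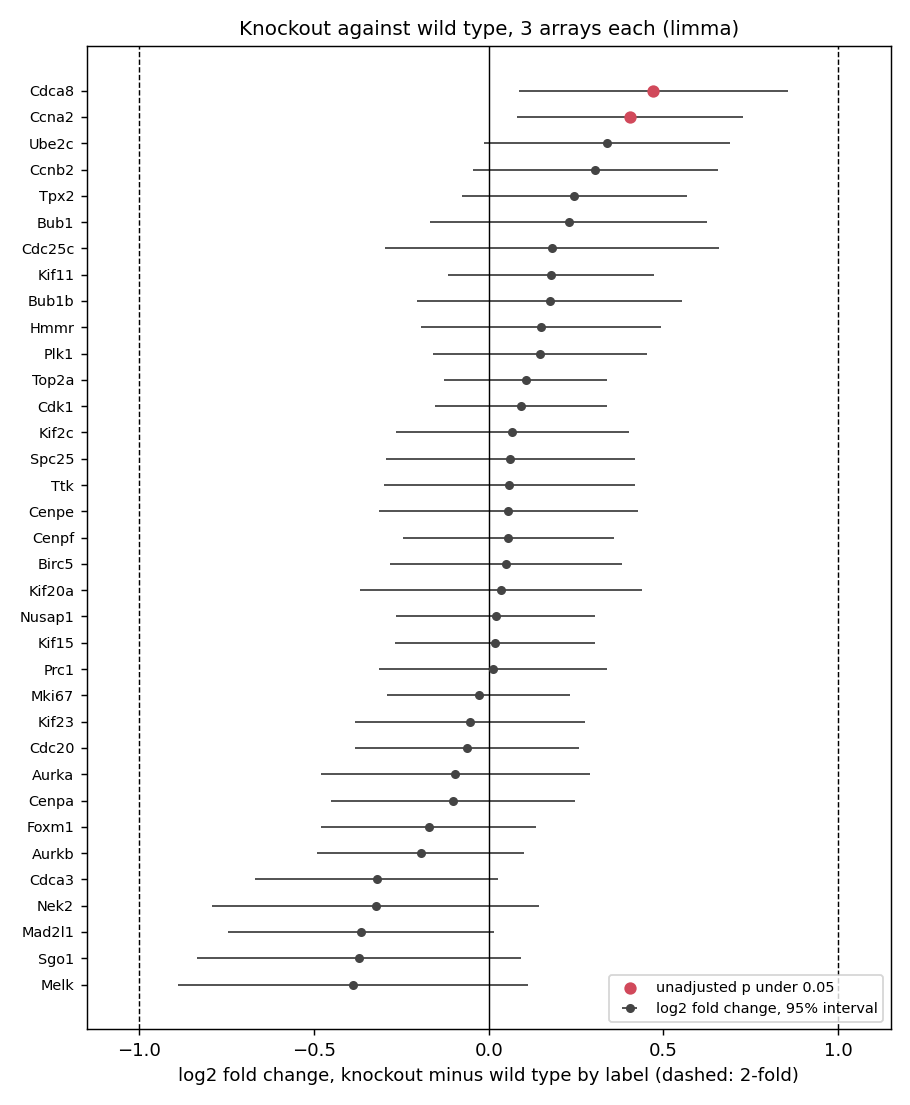
Log2 fold change (x axis, knockout minus wild type by label) of each of the 35 mitosis genes, with its 95% interval from limma, 3 arrays in each group. Every interval lies between the dashed lines of a 2-fold change, and Ccna2 and Cdca8, at 0.40 and 0.47, are the 2 members whose intervals leave out 0.

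**Figure D2:**
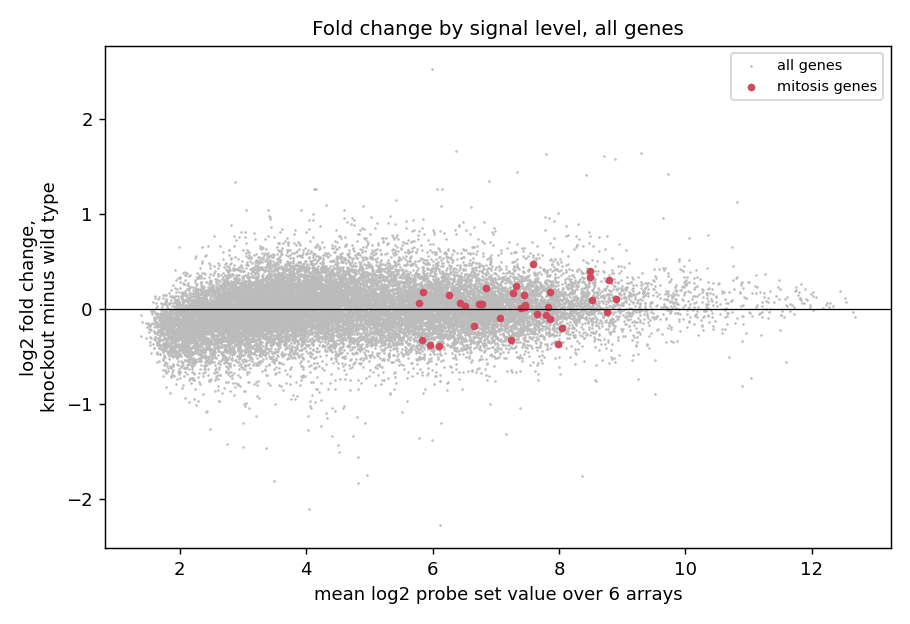
Log2 fold change (y axis, knockout minus wild type) against mean log2 signal over 6 arrays (x axis) for all 22180 genes in grey and the 35 mitosis genes in red. The members lie between 5.79 and 8.90 in signal and between -0.39 and 0.47 in fold change, inside the cloud of all genes.

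Cyclins and their kinase drive entry into mitosis. Ccna2, the gene of cyclin A2, which acts from S phase to early mitosis, measured 8.05, 8.30 and 8.54 in the wild-type arrays and 8.63, 8.69 and 8.78 in the knockout arrays. The groups did not overlap, but the wild-type arrays spread over more than the gap between the groups. Its log2 fold change was 0.40 ± 0.14 (SE, unadjusted p = 0.0193, adjusted p = 0.405 in limma), or 1.32-fold, and it was 0.28 (unadjusted p = 0.0668) when wild-type replicate 1 was left out and 0.37 (unadjusted p = 0.0587) when knockout replicate 3 was. Ccnb2, the gene of cyclin B2, a partner of CDK1, measured 8.75, 8.45 and 8.72 in the wild-type and 8.87, 8.73 and 9.25 in the knockout arrays. Knockout replicate 3 stood highest, and the difference of 0.31 ± 0.16 (SE, adjusted p = 0.531) was 0.16 without it. Cdk1, the gene of the kinase itself, was at 8.47, 8.42 and 8.55 against 8.54, 8.61 and 8.57, so its 6 arrays lay within 0.18 of each other and the groups overlapped. Its log2 fold change of 0.09 had a 95% interval of -0.15 to 0.34. Cdc25c, the gene of a phosphatase that activates CDK1, differed by 0.18 ± 0.21 (SE).

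Foxm1, the gene of the transcription factor that activates many of the others, lay on the opposite side from Ccna2. It measured 6.80, 6.77 and 6.66 in the wild-type arrays and 6.58, 6.59 and 6.54 in the knockout arrays. The groups did not overlap, with every knockout array lower, by 0.17 on average (log2 fold change -0.17 ± 0.14, SE, adjusted p = 0.686). Melk, the gene of a kinase of dividing progenitors, had the lowest log2 fold change of the members, -0.39 ± 0.22 (SE). The size rested on single arrays, since it was -0.18 without knockout replicate 2.

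The anaphase-promoting complex ends mitosis by marking cyclins and securin for destruction. Cdc20, the gene of its mitotic activator, measured 7.81, 7.64 and 8.01 against 7.81, 7.63 and 7.83, so the groups overlapped throughout (log2 fold change -0.06 ± 0.14, SE). Ube2c, the gene of its ubiquitin-conjugating enzyme, was at 8.32 ± 0.18 (SD, n = 3) in the wild-type and 8.65 ± 0.25 (SD, n = 3) in the knockout arrays. That difference of 0.34 ± 0.16 (SE, adjusted p = 0.493) was 0.21 without knockout replicate 3. Cdca3, the gene of a ubiquitin ligase adaptor that promotes mitotic entry, measured 7.27, 7.49 and 7.42 in the wild-type and 7.18, 6.83 and 7.21 in the knockout arrays. Every knockout array was lower, knockout replicate 2 by the most, and the log2 fold change of -0.32 ± 0.16 (SE, adjusted p = 0.510) was -0.20 without that array.

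Among the mitotic kinases none separated the groups. Aurka, the gene of the centrosomal Aurora kinase, measured 7.10, 7.02 and 7.23 in the wild-type and 7.03, 6.73 and 7.29 in the knockout arrays. Its lowest and its highest array were both knockout arrays, and the difference of -0.10 turned to 0.05 without knockout replicate 2. Plk1, the gene of Polo-like kinase 1, was at 7.21, 7.48 and 7.42 against 7.59, 7.50 and 7.46, a log2 fold change of 0.15 ± 0.14 (SE), or 0.07 without the low wild-type replicate 1. Nek2, the gene of a centrosome-splitting kinase, and Ttk, the gene of the checkpoint kinase MPS1, differed by -0.32 ± 0.21 (SE) and 0.06 ± 0.16 (SE).

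The chromosomal passenger complex joins Aurora B to survivin, borealin and INCENP and corrects faulty spindle attachments. Cdca8, the gene of borealin, measured 7.06, 7.38 and 7.61 in the wild-type and 7.63, 7.92 and 7.91 in the knockout arrays. The highest wild-type and the lowest knockout array nearly met. The log2 fold change was 0.47 ± 0.17 (SE, unadjusted p = 0.0216, adjusted p = 0.419 in limma), or 1.39-fold, and the unadjusted p was 0.0765 without wild-type replicate 1, 0.0686 without knockout replicate 2 and 0.0651 without knockout replicate 3; the log2 fold changes were then 0.33, 0.42 and 0.43. Its partners differed by less. Aurkb, the gene of the kinase, was at 8.17, 8.23 and 8.02 against 8.07, 7.80 and 7.96, a log2 fold change of -0.19 ± 0.13 (SE). Birc5, the gene of survivin, was at 7.49, 7.34 and 7.47 against 7.50, 7.27 and 7.67, with knockout arrays at both ends of the range and a log2 fold change of 0.05 ± 0.15 (SE). Incenp, listed among the further mitosis genes, is the remaining subunit, with a log2 fold change of 0.06 ± 0.16 (SE).

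The spindle checkpoint delays anaphase until every kinetochore is attached. Bub1, the gene of a checkpoint kinase, measured 6.64, 6.54 and 7.04 in the wild-type and 6.81, 7.13 and 6.96 in the knockout arrays, which overlapped (log2 fold change 0.23 ± 0.18, SE). Bub1b, the gene of BUBR1, differed by 0.17 ± 0.17 (SE). Mad2l1, the gene of MAD2, which inhibits CDC20, went the other way at 8.34, 8.08 and 8.11 against 8.04, 7.48 and 7.91. Every knockout array was lower, though knockout replicate 1 lay close under the wild-type arrays. Its log2 fold change of -0.37 ± 0.17 (SE, adjusted p = 0.494) was -0.20 without knockout replicate 2.

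Genes of the centromere and kinetochore, where microtubules attach, had log2 fold changes between -0.37 and 0.06. Cenpa, the centromeric histone H3 variant, had -0.10. Cenpe, a kinetochore motor, Cenpf, a kinetochore protein, and Spc25, a subunit of the NDC80 complex, each had 0.06. Cenpf had the narrowest spread of the members, with its 6 arrays within 0.12 of each other. Sgo1, the gene of shugoshin, which protects centromeric cohesin, had -0.37 ± 0.21 (SE). That value was -0.56 without wild-type replicate 1 (unadjusted p = 0.0177) and -0.24 without wild-type replicate 2.

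Of the 9 kinesins and spindle proteins 8 lay above 0, by little: their median log2 fold change was 0.04. Tpx2, which targets Aurora A to the spindle, had the largest, 0.25 ± 0.14 (SE). Kif11, the gene of the motor that pushes the spindle poles apart, was at 7.64, 7.81 and 7.86 against 8.07, 7.89 and 7.89, with the groups apart by a narrow margin and a log2 fold change of 0.18 ± 0.13 (SE). Hmmr, which encodes a spindle protein, had 0.15, and Kif2c, a microtubule-depolymerising kinesin, 0.07. Kif15, a second pole-separating kinesin, Nusap1, a microtubule-bundling protein, and Prc1, the bundler of the central spindle, lay at 0.02, 0.02 and 0.01. The cytokinesis kinesins Kif20a and Kif23 had 0.04 and -0.05.

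Top2a and Mki67 are the usual readouts of a dividing population. Top2a, the gene of the topoisomerase that untangles sister chromatids, measured 8.85, 8.83 and 8.87 in the wild-type and 9.03, 8.93 and 8.90 in the knockout arrays. The groups did not overlap, but the log2 fold change was 0.11 ± 0.10 (SE, adjusted p = 0.754), with a 95% interval of -0.13 to 0.34. Mki67, the gene of the Ki-67 protein that coats mitotic chromosomes, was at 8.78, 8.68 and 8.87 against 8.70, 8.88 and 8.67. These arrays were interleaved, and the log2 fold change of -0.03 ± 0.12 (SE) had a 95% interval of -0.29 to 0.23.

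**Figure D3:**
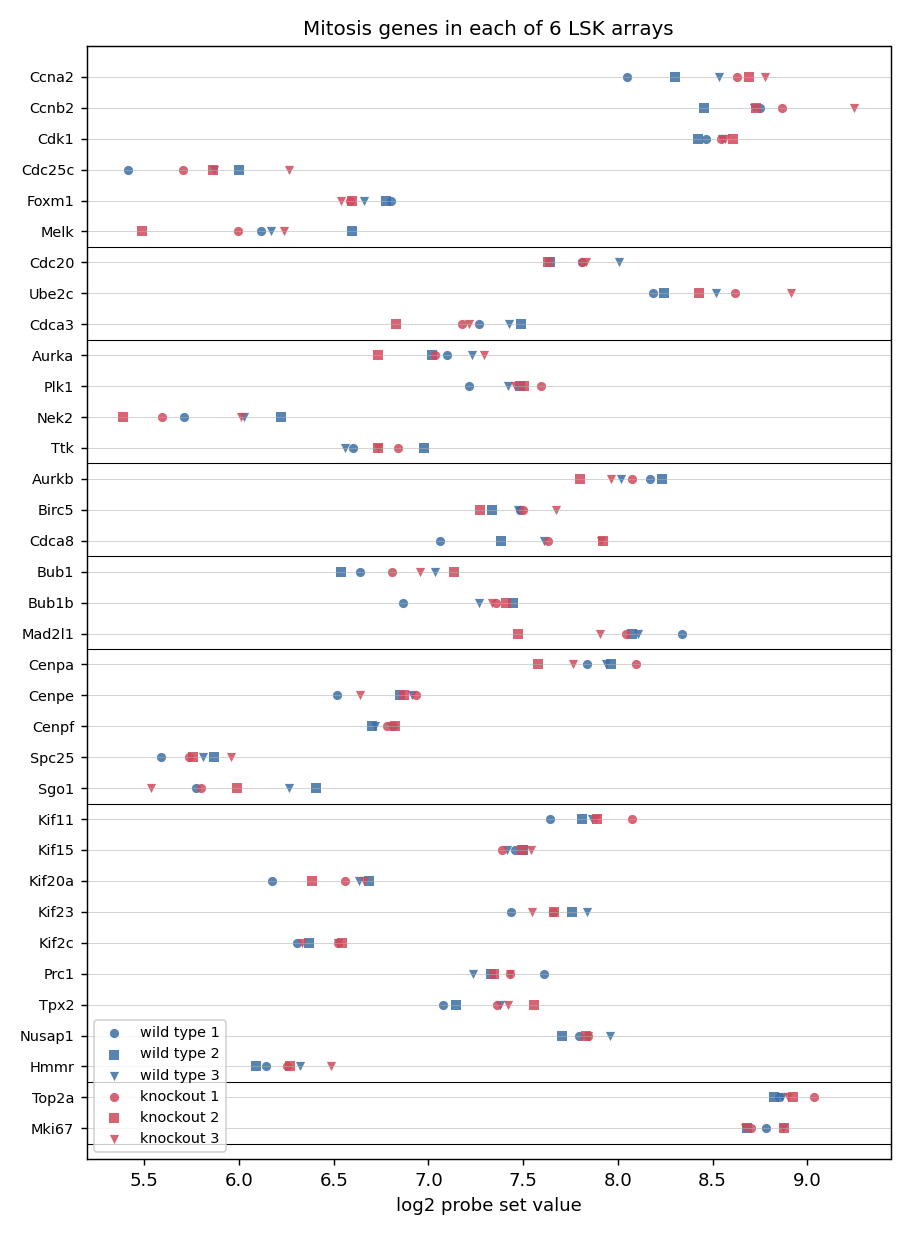
Log2 probe set value (x axis) of each mitosis gene in each of the 6 arrays, wild type in blue and knockout in red, with a symbol for each replicate and lines between the role groups in the order of the text. The groups overlap for Mki67 and Cdk1, at 8.67 to 8.88 and 8.42 to 8.61, while the Ccna2 arrays run from 8.05 in wild-type replicate 1 to 8.78 in knockout replicate 3. Values of different genes come from different probes and are not comparable in level.

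The members also varied between arrays of one group. The median within-group SD of the members was 0.16, against 0.20 over the 6256 genes of the same signal range. Wild-type replicate 1 held the lowest value for 13 of 35 members (37.1%, against 27.7% of genes in the signal range), and the members' median deviation there was -0.11. Knockout replicate 2 was lowest for 9 members (25.7%, against 14.2% of genes in the signal range), among them Melk, Cdca3, Nek2, Aurka, Aurkb and Mad2l1, and knockout replicate 3 highest for 9 (25.7%, against 14.2%), among them Ccna2, Ccnb2, Cdc25c and Ube2c. The mean level over the members was 7.20, 7.32 and 7.36 in the wild-type and 7.33, 7.26 and 7.38 in the knockout arrays, which overlapped. Without wild-type replicate 1 the members with a log2 fold change above 0 numbered 20 and their median was 0.01.

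**Figure D4:**
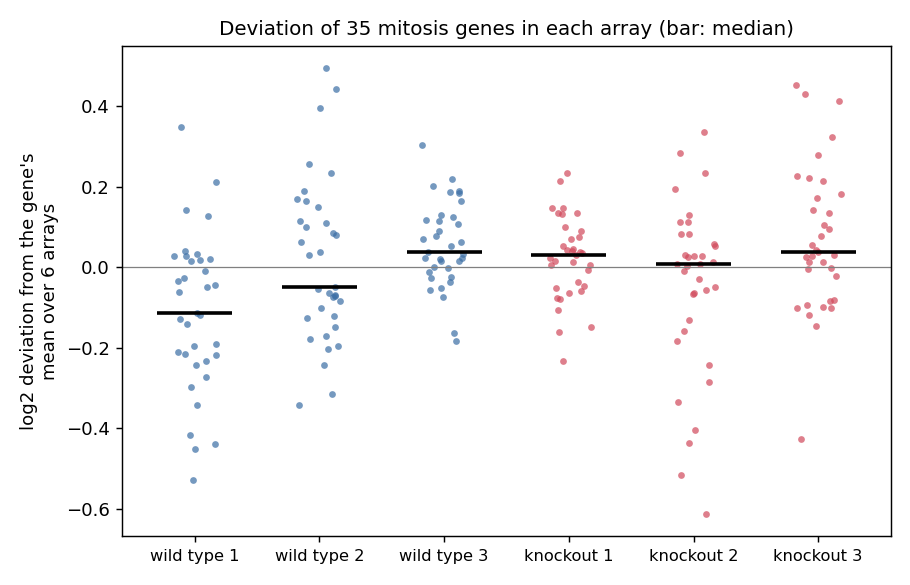
Log2 deviation of each of the 35 mitosis genes from its own mean over the 6 arrays (y axis), by array, with wild type in blue, knockout in red and the median as a bar. Medians run from -0.11 in wild-type replicate 1 to 0.04 in wild-type replicate 3 and knockout replicate 3.

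Other genes of mitosis were taken from a list of 113 with no overlap with the members, of which 105 were measured. Of these, 9 had an unadjusted p under 0.05 (8.57%, against 10.3% of all genes), 7 on the higher side and 2 on the lower. The median over the list was 0.04, and 59 were above 0. None passed the adjusted threshold in limma. Sass6, the gene of the centriole cartwheel protein, measured 6.48, 6.18 and 6.45 in the wild-type and 7.10, 7.29 and 6.70 in the knockout arrays (log2 fold change 0.66 ± 0.19, SE, adjusted p = 0.348), without overlap. The condensin core gene Smc4 was at 8.49 ± 0.12 (SD, n = 3) and 8.90 ± 0.16 (SD, n = 3), a difference of 0.41 ± 0.13 (SE). Anapc5 and Cdc27, subunit genes of the anaphase-promoting complex, had 0.30 and 0.39. In the lower direction were Zw10, a kinetochore gene of the checkpoint, at -0.42 ± 0.15 (SE), and Cks1b, the gene of a CDK-binding protein, at -0.39 ± 0.14 (SE).

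Earlier stages of the cycle were read from lists of the same kind. Among 54 measured DNA replication genes an unadjusted p under 0.05 was found for 4 (7.41%), with as many on either side, and the median log2 fold change was 0.00. Rrm2 and Dut, which supply nucleotides, had 0.50 and 0.30, while their second, dimmer probe sets gave -0.11 and 0.04. Tk1, thymidine kinase, and Gins4, of the replicative helicase, had -0.34 and -0.39. Among 27 G1 and quiescence genes 8 had an unadjusted p under 0.05, 3 on the higher side and 5 on the lower (29.6%, against 10.3% of all genes), with a median of 0.05. Cdkn2c and Cdkn2d, which encode inhibitors of CDK4 and CDK6, went opposite ways at 0.52 ± 0.17 (SE) and -0.63 ± 0.24 (SE). Cdk6 had 0.32, the antiproliferative gene Btg1 -0.39, the stem cell transcription factor gene Hlf -0.33, and Rbl1, the gene of the DREAM subunit p107, -0.37. None of these passed the adjusted threshold, and the difference between lists was not tested.

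Markers of other cell types varied between arrays. The 11 measured B and plasma cell markers had a mean level of 5.26, 5.34 and 6.12 in the wild-type and 5.44, 5.98 and 5.97 in the knockout arrays. Wild-type replicate 1 was lowest, as for the mitosis genes. It was also lowest for the mean levels of the erythroid, LSK and stem cell, further mitosis and DNA replication lists. For the T and NK markers it was highest. Their summed signal on the linear scale ranged from 745 to 2215 in the wild-type and from 1366 to 1765 in the knockout arrays. The brightest of them, Jchain, ran from 8.42 in wild-type replicate 1 to 10.39 in wild-type replicate 3. The defining gene Pax5 lay at 4.49 to 5.13, near the 4.42 median of all genes, and Cd79a at 5.44 to 8.01. Of the 11 log2 fold changes 9 were above 0 and 2 below, with a median of 0.27. The 9 erythroid markers had summed signals of 1375 to 1511 and 1220 to 1415, with the defining genes Gata1 at 4.62 to 5.18 and Klf1 at 4.24 to 5.28. The brightest were Car2, at 9.52 to 10.06, and Car1, at 6.29 to 8.33 with its lowest value in wild-type replicate 1. Of the 9 log2 fold changes 2 were above 0 and 7 below, with a median of -0.07. The 12 neutrophil progenitor markers had 10052 to 10852 and 10467 to 12523. Of these 12, 8 had a log2 fold change above 0 and 4 below, with a median of 0.15. In limma 1 of them had an unadjusted p under 0.05 (8.33%, against 10.3% of all genes). It was Ctsg, at 0.41 ± 0.10 (SE, adjusted p = 0.334). The 9 T and NK cell markers had summed signals of 904 to 1220 and 979 to 985. Of these, Nkg7 lay at 9.62 to 10.06, while Cd3d lay at 3.99 to 5.15, Cd3e at 3.80 to 5.73 and Cd3g at 2.92 to 3.68. The 7 megakaryocyte markers had 597 to 634 and 584 to 624, with 4 log2 fold changes above 0 and 3 below. In limma 2 of them had an unadjusted p under 0.05 (28.6%, against 10.3% of all genes). Both were lower, Gp5 at -0.52 ± 0.15 (SE, adjusted p = 0.351) and Treml1 at -0.45 ± 0.19 (SE, adjusted p = 0.475). Among the B and plasma cell, erythroid, and T and NK markers, 0 had an unadjusted p under 0.05 in limma. The part of other cell types in the differences of the mitosis genes was not tested.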

How the data were processed

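The authors deposited log2 probe set values of 41345 probe sets on 6 arrays, made with Affymetrix Expression Console per the submitters' processing notes. For the background correction, normalization, summary method and version, nothing is given in the sources used here. Normalization that equalises arrays hides a change in total RNA per cell. Of the probe sets, 23521 carried 1 gene symbol in the platform annotation, and the brightest stood for each of 22180 genes.

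Groups came from the sample titles, and the labels give 3 mice in each. All genes were fitted with limma 3.58.1 in R 4.3.3 (lmFit, eBayes with an intensity trend, genotype only, two-sided), with Benjamini-Hochberg adjustment and a threshold of 0.05. The fit was also run on simulated data, in which SDs were shuffled between genes, so that run did not check the intensity trend. Precision is limited by the 6 arrays. No list was tested: members are described by counts and medians beside all genes. Members with an unadjusted p under 0.05 and a fixed set of 12 (Mki67, Top2a, Ccna2, Ccnb2, Cdk1, Plk1, Aurka, Aurkb, Foxm1, Birc5, Cdc20 and Bub1) are given in every array, and Cdca3, Mad2l1 and Kif11 were added after their values were seen because their groups do not overlap. From each comparison list at most 6 genes with the smallest p are named, and Incenp was added as the fourth subunit of its complex. The members and lists were chosen with earlier results of these data known. Alternatives were other moderation, array weights, normalizations, a filter under the 40th percentile of signal, other probe set rules, a replicate block and each array left out.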

Additional observations from a re-analysis of the deposited data

How the results depend on the processing

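No member passed the adjusted threshold under any alternative, and the lowest adjusted p of a member over all of them was 0.235, without wild-type replicate 3. Over all genes, 0 passed in limma under the 12 other alternatives, an adjusted p under 0.1 included. Leaving out 1 array gave 0 to 1, the 1 appearing without knockout replicate 2 or without wild-type replicate 3. Without adjustment, 2274 genes had a p under 0.05 in the main fit. Under the other alternatives it was 1218 (with the filter on signal) to 2514 (median centring). The median log2 fold change of the members stayed above 0 throughout, at 0.00 to 0.06, or 0.01 to 0.09 without 1 array. Between 18 and 26 members were above 0. Of the 35 members, 4 had an unadjusted p under 0.05 with median centring (2 higher, 2 lower), against 11.3% of all genes. With the replicate block there were 4 (3 higher, 1 lower), against 9.55%, and with quantile normalization 3 (2 higher, 1 lower), against 8.95%. Without moderation there was 1 (Foxm1, lower), against 8.81%. Leaving out 1 array gave 1 member (without wild-type replicate 1) to 3, against 7.35% to 12.2% of all genes. Without knockout replicate 3 the members at that p were Melk at -0.55 and Nek2 at -0.50, against 7.84% of all genes. Across genes, deviations from the group means correlated at 0.02, -0.03 and -0.09 for the 3 same-numbered pairs of arrays. For the differently numbered pairs they correlated at -0.07 to 0.11. Such values cannot settle whether same-numbered mice were handled together.

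Median centring takes a constant from each array, so it moved every log2 fold change, those of the members included, by the same amount. The median of all genes was then -0.055 and that of the further mitosis genes -0.016. Without 1 array the median of the further mitosis genes was -0.012 (without wild-type replicate 1) to 0.072, and the cause was not tested. Members near 0 changed sign: Birc5 had -0.0048 with median centring and -0.045 to 0.15 without 1 array, Cdc20 -0.15 to 0.032, Mki67 -0.092 to 0.018 and Aurka -0.23 to 0.048. The arrays that turned the sign were knockout replicate 3 for Birc5 and Mki67, knockout replicate 2 for Aurka and Cdc20, and wild-type replicate 3 for Cdc20 and Mki67. With 3 arrays a group, the interval left out a 1.5-fold change for 24 of 35 members and not for the others.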
